A study of Rattus norvegicus with 24 samples.

Results

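The let-7 family and its relative miR-98 were described through their 5p arms, the strands that carry the shared seed. The members were every array feature named rno-let-7 with a letter from a to i and the 5p arm, together with rno-miR-98-5p. This rule gave 9 members of the 758 rat miRs measured, namely rno-let-7a-5p, rno-let-7b-5p, rno-let-7c-5p, rno-let-7d-5p, rno-let-7e-5p, rno-let-7f-5p, rno-let-7g-5p, rno-let-7i-5p and rno-miR-98-5p. Every array carried all 9, and they are called let-7a to miR-98 from here on, each name standing for the 5p arm unless an arm is given.

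INS1 cells, an insulin-secreting line derived from a rat insulinoma, were profiled on 24 single-colour Agilent arrays. Cells received the cytokines IL-1β and IFN-γ, Givinostat, which inhibits lysine deacetylases, both, or neither, and the comparisons asked how these agents changed miR levels. The 8 groups held 3 arrays each. The series text calls the replicates technical and the paper writes of triplicates, so it is unsettled whether the arrays stand for separate cultures, and the p-values may measure technical spread only.

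The 6h_Ctrl and 24h_Ctrl groups were untreated INS1 cells collected at 6 h and 24 h. The 6h_Cyt and 24h_Cyt groups were exposed for those times to the cytokine pair, with IL-1β at 150 pg/ml and IFN-γ at 0.1 ng/ml. The 6h_Giv_Ctrl and 24h_Giv_Ctrl groups received 125 nM Givinostat without cytokines. In 6h_Giv_Cyt and 24h_Giv_Cyt the same dose of Givinostat was given 1 h before the same cytokines. All groups came from the one cell line, a tumour line that stands in for primary β-cells.

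As background, let-7 miRs are abundant in differentiated animal tissues and pair through an identical seed with the same target sites, so their effects on targets add up. LIN28 proteins bind let-7 precursors and block their maturation, and let-7 in turn represses LIN28, a loop that sets let-7 levels during differentiation and bears on insulin signalling and glucose metabolism. Members arise from several genomic loci, and some of these lie close together in clusters.

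The mature sequences show how little separates the members. They are printed 5′ to 3′ from the RefSeq table for GRCr8, with the seed, bases 2 to 8, in capitals.
let-7a: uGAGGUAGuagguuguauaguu
let-7b: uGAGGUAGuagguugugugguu
let-7c: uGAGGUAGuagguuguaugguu
let-7d: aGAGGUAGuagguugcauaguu
let-7e: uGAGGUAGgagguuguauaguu
let-7f: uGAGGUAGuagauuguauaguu
let-7g: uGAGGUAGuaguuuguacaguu
let-7i: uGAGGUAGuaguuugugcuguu
miR-98: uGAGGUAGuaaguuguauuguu

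All 9 are 22 bases long and share the seed GAGGUAG. In the sequence table, which held 685 of the 758 names on the array, 9 mature miRs carried this seed and 0 lay outside the members, so the list of other miRs with the same seed was empty. Counted from the 5′ end and starting from let-7a, the substitution was A19G in let-7c, U9G in let-7e and G12A in let-7f. They were A17G and A19G in let-7b, U1A and U16C in let-7d, G12U and U18C in let-7g, and G11A and A19U in miR-98. The member farthest from let-7a was let-7i, with G12U, A17G, U18C and A19U.

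The 9 mature sequences lay at 12 loci on 6 chromosomes of GRCr8. The let-7b locus (Mirlet7b) was at chr7:118684044-118684065 on the plus strand, 386 bases from let-7c-2 (Mirlet7c2) at chr7:118683636-118683657 on the same strand, and neither overlapped another annotated gene. The other let-7c locus (Mirlet7c1) was at chr11:29688127-29688148 on the plus strand within LOC103693508, so a let-7c signal cannot be assigned to either locus. On chromosome 17, let-7a-1 (chr17:16320145-16320166), let-7f-1 (chr17:16320508-16320529, listed as Mirlet7f-1os) and let-7d (chr17:16322273-16322294) followed each other on the plus strand within LOC120097935, with gaps of 341 and 1743 bases. On chromosome X, let-7f-2 (chrX:24460052-24460073) and miR-98 (chrX:24460663-24460684) lay 589 bases apart on the plus strand within Huwe1. The remaining loci were let-7a-2 at chr8:50805219-50805240 (plus strand, within Lnc215 and Mir100hgl), let-7e at chr1:67350243-67350264 (plus strand, within Spaca6), let-7g at chr8:115701026-115701047 (plus strand, within Rpl29 and Wdr82) and let-7i at chr7:60527935-60527956 (minus strand, within LOC134479799). Overlap was taken from gene spans, and exon or intron positions were not used here.

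Each member was read by 2 probe sequences of different length, each printed in 8 spots, so a member's value on an array was the mean of 16 spots. The probes of let-7b, let-7c and let-7f are shown because the results below turn on these members. They are printed 5′ to 3′ and are perfect complements of the 3′ part of the miR.
let-7b longer probe: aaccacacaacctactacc
let-7b shorter probe: aaccacacaacctactac
let-7c longer probe: aaccatacaacctactacc
let-7c shorter probe: aaccatacaacctactac
let-7f longer probe: aactatacaatctactacctc
let-7f shorter probe: aactatacaatctactacct

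Of the 18 member probes, 12 lay 1 base from the sequence of another member, and 6 lay 2 bases from the nearest. The let-7b and let-7c probes of the same length differed from each other by 1 base, and 5 of the 18 probes covered all 7 bases of the seed. Hybridisation of a probe to a neighbouring member was not tested here, so a member's signal may include part of a neighbour's.

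The family was among the brightest on the arrays. Signals are given as quantile-normalized log2 signal, the log2 of the fluorescence after the arrays were given the same distribution, and a difference of 1 is a doubling. Averaged over the 24 arrays, let-7a read 10.59 and ranked 2 among the 758 miRs, let-7f read 10.41 and ranked 4, and let-7b read 10.22 and ranked 7. Next came let-7c at 10.07, let-7d at 9.96, let-7i at 9.63, let-7e at 9.21 and let-7g at 9.16, so 8 members were among the 25 brightest miRs. The faintest member, miR-98, read 8.21 and ranked 40. For scale, miRs detected on no array had a median between 5.45 and 5.48 on each array, where detected means that at least 8 of the 16 spots were well above background. All 9 members were among the 117 miRs detected on all 24 arrays, and 0 miR spots were saturated. Brightness also reflects the probe, so this order describes signal and not copy number.

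The cell line label was checked against miRs known to mark β-cells and other cell types. Of 8 miRs taken as β-cell markers, 4 were detected on all 24 arrays, with miR-375-3p, the most β-cell-enriched of them, between 9.65 and 10.34 and miR-7a-5p between 10.53 and 11.18. The markers miR-184, miR-200a-3p and miR-200b-3p were detected on 0 arrays. None of the 6 blood cell markers, the 3 fibroblast markers or the liver marker miR-122-5p was detected on any array (0 arrays), and the endothelial marker miR-126a-3p was detected on 2. Of the 4 muscle markers, miR-206-3p was detected on all 24 arrays, between 6.58 and 7.55, miR-1-3p on 3 and the other two on 0. From 24h_Ctrl to 24h_Cyt the group mean went from 10.14 to 9.83 for miR-375-3p and from 7.22 to 7.13 for miR-200c-3p. It went from 10.84 to 11.08 for miR-7a-5p and from 8.66 to 9.12 for miR-141-3p. For the muscle marker miR-206-3p it went from 6.95 to 6.79. The part of these signals in the let-7 results was not tested.

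The range of the 8 group means of a member lay between 0.04 (let-7f) and 0.69 (let-7e). For let-7e the means ran from 8.87 in 6h_Giv_Ctrl to 9.56 in 24h_Ctrl, and its SD over the 24 arrays (0.239) ranked 91 from the lowest among the 117 miRs detected on all arrays. For let-7b the lowest group mean was that of 6h_Giv_Ctrl (arrays at 10.16, 9.91 and 9.93), and above it the means were 10.10 ± 0.09 (SD, n = 3) in 24h_Cyt, 10.15 ± 0.12 in 24h_Giv_Cyt, 10.19 ± 0.15 in 6h_Cyt, 10.21 ± 0.14 in 6h_Ctrl, 10.22 ± 0.15 in 6h_Giv_Cyt, 10.36 ± 0.10 in 24h_Giv_Ctrl and 10.54 ± 0.09 in 24h_Ctrl. Neighbours in the lower part of this order were closer than their spread, and although 24h_Ctrl had the highest mean, its lowest array (10.43) lay below the highest 24h_Giv_Ctrl array (10.46). For let-7c the lowest mean was 9.85 ± 0.25 in 6h_Giv_Ctrl and the highest 10.33 ± 0.12 in 24h_Ctrl, with 24h_Cyt at 9.95 ± 0.09 and 24h_Giv_Cyt at 10.06 ± 0.09. On this scale the group with the highest mean was 24h_Ctrl for 8 of the 9 members and the group with the lowest was 6h_Giv_Ctrl for 8 of 9. The exception in both was let-7f, whose means ran from 10.39 in 6h_Giv_Cyt to 10.43 in 24h_Cyt, a range of 0.04.

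**Figure D1:**
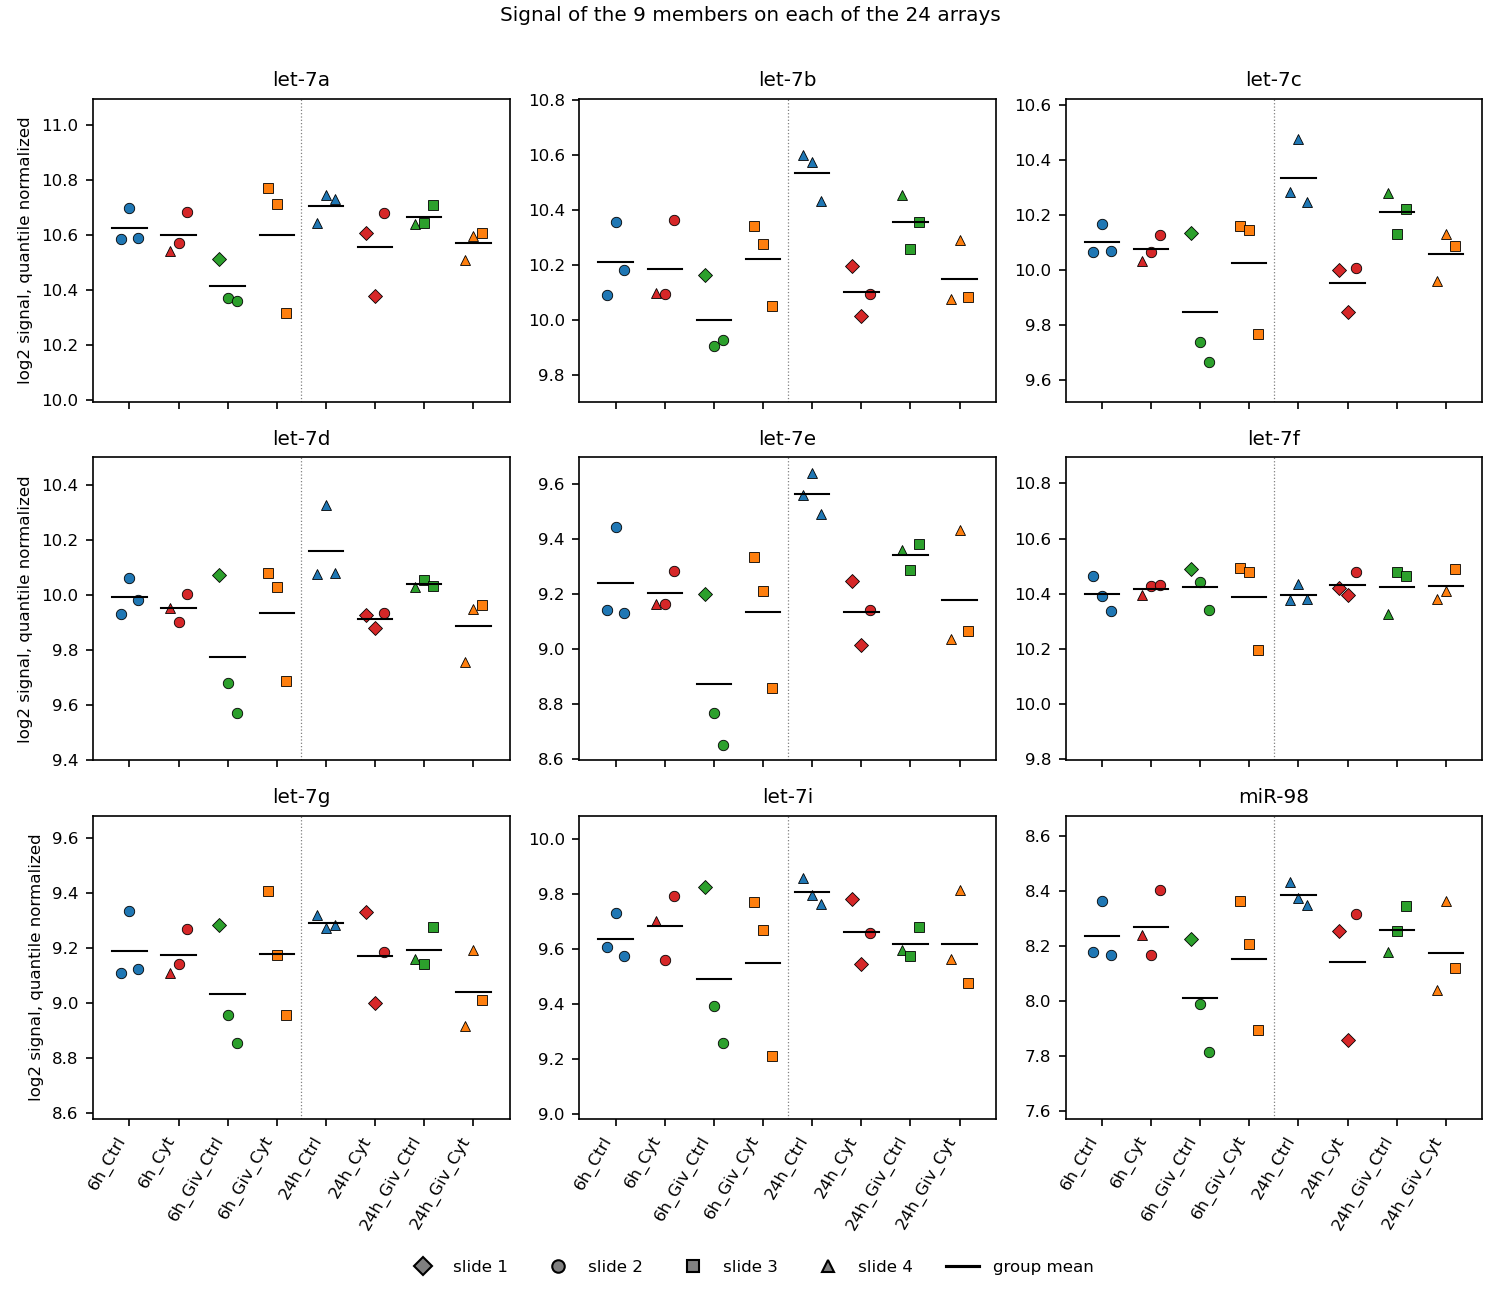
Quantile-normalized log2 signal of each of the 9 members on each of the 24 arrays, by group, with a black line at the group mean and every panel spanning the same height in log2 units. Diamonds, circles, squares and triangles are arrays of slides 1, 2, 3 and 4, and the let-7f points stay within a narrower band than those of let-7b, let-7c and let-7e.

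The comparison of 24h_Cyt with 24h_Ctrl asked what 24 h of cytokines did without Givinostat. For let-7b the 24h_Ctrl arrays read 10.60, 10.58 and 10.43 and the 24h_Cyt arrays 10.20, 10.02 and 10.10. Every cytokine-exposed array lay below every control array. For let-7c the control arrays read 10.28, 10.48 and 10.25 and the cytokine arrays lay between 9.85 and 10.01, again with no overlap. For let-7e the values were 9.56, 9.64 and 9.49 against 9.24, 9.01 and 9.14, also without overlap. For let-7f they were 10.38, 10.43 and 10.38 against 10.42, 10.40 and 10.48, and the groups overlapped.

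Differences are log2FC, the first group minus the second, and a miR was called when limma gave an adjusted p below 0.05 (Benjamini-Hochberg over all 758 miRs) and an absolute log2FC above 0.1375, the log2 of 1.1. By this rule 2 of the 9 members were called in 24h_Cyt against 24h_Ctrl, both lower, beside 31 of the 758 miRs (4.09%) in either direction and 11 (1.45%) that were lower. Relative to arrays given the same distribution, let-7b fell by 0.43 (SE 0.0984, 95% interval −0.64 to −0.23, adjusted p = 0.0136), which is 1.35-fold, but its log2FC turned positive without normalization between arrays (0.53) and with arrays centred on the internal control miRs (0.16). On the same scale let-7c fell by 0.38 (SE 0.109, 95% interval −0.61 to −0.15, adjusted p = 0.0449), which is 1.30-fold, and it too turned positive on those scales (0.62 and 0.25). The centring averages 3 control miRs, of which 2, the arms of miR-423, read near background, and the signs of let-7b and let-7c on that scale rest on them. Without normalization miR-103-3p, the control detected on all arrays, had a log2FC of 0.83, above those of let-7b and let-7c, while miR-423-3p and miR-423-5p had 0.06 and 0.21. Over 17 alternative settings the adjusted p of let-7b ran from 0.00338 to 0.414 and that of let-7c from 0.00804 to 0.448, and several of these settings alter the p and leave the log2FC as it is. With the correlation pooled over a miR's spots, the kind of fit named in the study's methods, let-7c lost its call (adjusted p = 0.239). That fit estimated a spot correlation of 0.0373, so the 16 spots of an array counted almost as separate values. Its p-values, here and below, reflect spots more than arrays. The fit held no term for the probe sequence, so the level gap between a member's probes entered its residual spread. That gap in mean log2 signal was smallest for miR-98 (0.376) and was 1.57 for let-7c. Its part in the calls of this fit was not tested. In the 17 settings let-7b was called in 10, let-7c in 5 and let-7e, which is described next, in 4. The share of all miRs called differed between settings, at 0.132% with slide as a fixed block and 72.7% with centring on the control miRs. In RNA from whole cultures, fewer cells carrying a miR and less of it per cell cannot be told apart.

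The other members did not pass the test in this comparison after quantile normalization. The log2FC of let-7e was −0.43 (SE 0.138, adjusted p = 0.0716), as large as that of let-7b but with a wider spread, and those of let-7d and miR-98 were −0.25 (adjusted p = 0.177) and −0.24 (adjusted p = 0.274). The values for let-7a, let-7g and let-7i were −0.15, −0.12 and −0.14, and let-7f stood at 0.03 (adjusted p = 0.771). Without 24h_Cyt array 2 the values shrank to −0.06 for let-7a, −0.04 for let-7g, −0.09 for let-7i and −0.10 for miR-98, without 24h_Ctrl array 2 that of let-7d was −0.16, and without 24h_Cyt array 1 that of let-7g was −0.20. That of let-7f was 0.05 without either array 2 and 0.01 without 24h_Cyt array 3. All of the values over all arrays except that of let-7f, which was negative in 4 of 17 settings, turned positive without normalization and with centring on the control miRs, a scale that takes in miR-423 signals near background, and without normalization let-7a, let-7d and let-7e (0.76, 0.74 and 0.61) also lay below miR-103-3p. At an unadjusted p below 0.05, 4 members were lower (let-7b, let-7c, let-7d and let-7e), where 23.7% of all miRs passed and 15% were lower. The arrays of 5 members (let-7b, let-7c, let-7d, let-7e and miR-98) lay entirely below those of 24h_Ctrl, beside 20.3% of all miRs and 23.1% of the 117 detected on all arrays. With a correlation pooled over the spots 3 members were called lower (let-7b, let-7e and miR-98), beside 6.33% of all miRs, or 2.77% that were lower. That fit counts the spots of an array almost as separate values, and let-7e and miR-98 did not pass on array means. The median over the 9 members was −0.24 (−0.10 without 24h_Cyt array 2), beside −0.01 over all miRs and −0.06 over the detected ones.

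**Figure D2:**
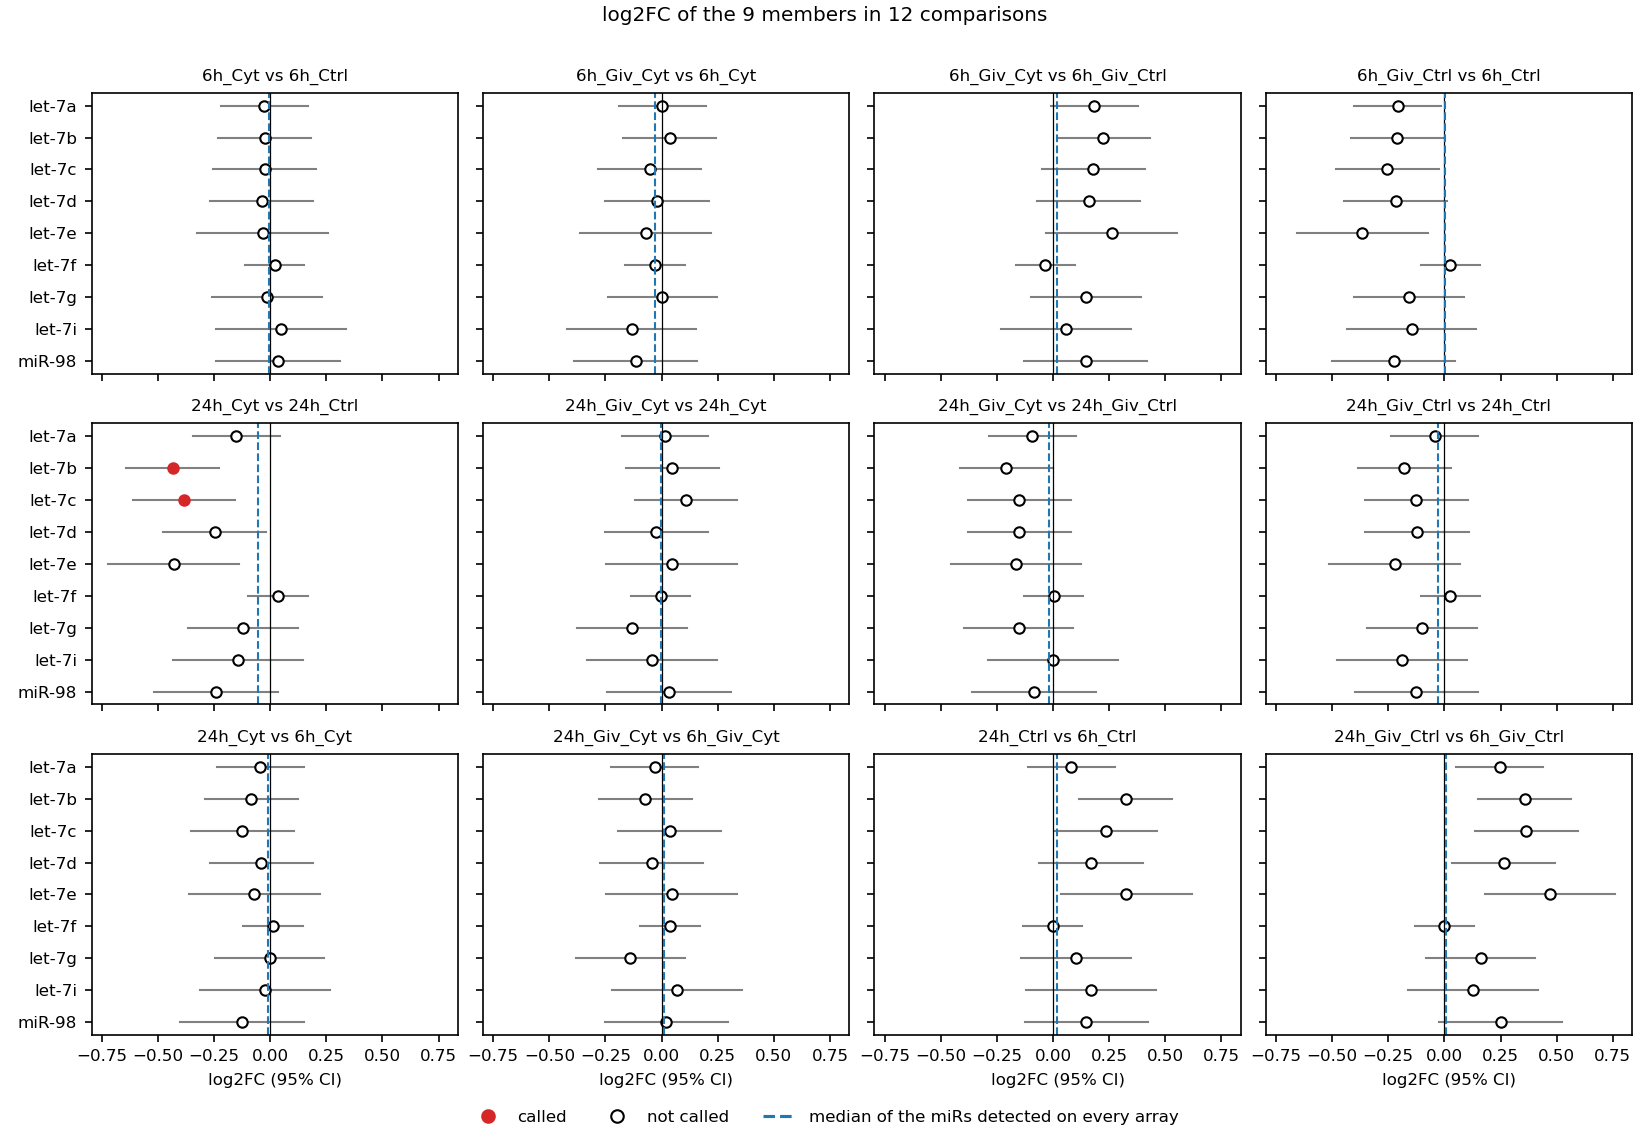
The log2FC of each of the 9 members in each of the 12 comparisons after quantile normalization, with lines for the 95% confidence interval, filled points for called values and a dashed line at the median of the miRs detected on all arrays. The called points are let-7b and let-7c in 24h_Cyt against 24h_Ctrl, and both turned positive without normalization between arrays, where miR-103-3p stood above them, or with centring on the control miRs, which takes in miR-423 signals near background.

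Both probe sequences of let-7b gave a negative value in this comparison. The shorter probe read 10.11 ± 0.07 (SD, n = 3) in 24h_Ctrl and 9.64 ± 0.12 in 24h_Cyt, a log2FC of −0.47 (SE 0.0886, adjusted p = 0.00488 over 1806 probe sequences). The longer probe gave −0.40 (SE 0.137, adjusted p = 0.132). For let-7c the shorter probe gave −0.44 (adjusted p = 0.0240) and the longer −0.33 (adjusted p = 0.181), and the let-7e probes gave −0.43 each. Of the 18 probe sequences, the 2 with an adjusted p below 0.05 were the shorter ones of let-7b and let-7c, both lower, beside 3.77% of the 1806 in either direction and 1.77% that were lower. The values of 16 of the 18 were negative, and the exceptions were the let-7f probes at 0.04 and 0.03. The probes of let-7a stood farther apart than those of any other member, at −0.06 for the longer and −0.24 for the shorter.

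**Figure D3:**
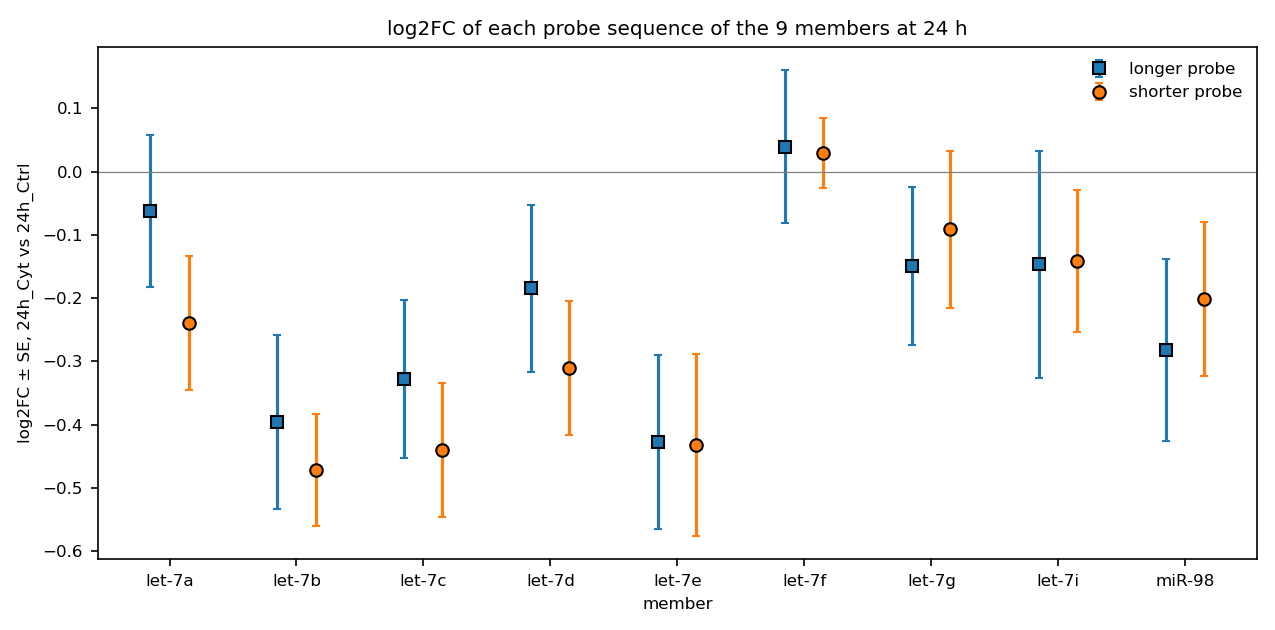
The log2FC of 24h_Cyt against 24h_Ctrl for the longer and the shorter probe sequence of each member after quantile normalization, with lines for the standard error. The probes of let-7b and let-7c lie between −0.47 and −0.33 and those of let-7f at 0.04 and 0.03, while without normalization between arrays the member values of let-7b and let-7c turned positive.

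The steady value of let-7f has to be read with its rank. Quantile normalization gives spots of equal rank an equal value on every array. All 8 spots of the longer let-7f probe ranked 9 to 16 of the 12128 miR spots on 12 of the 24 arrays, behind the 8 spots of the longer miR-7a-5p probe, which ranked 1 to 8 on 17 arrays. On the 24h_Cyt arrays the longer let-7f probe therefore had the same value, 11.62, with an SD of 0. The shorter let-7f probe was far from the top, with a median rank between 309.5 and 369.5 on each array, and gave a log2FC of 0.03 (SE 0.0553). On the scale set by the 75th percentile of the detected miRs, which uses no ranks, let-7f had a log2FC of −0.13.

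Differences taken within an array do not depend on the scaling between arrays except through ranks. The value of let-7b minus let-7f was 0.05, 0.14 and 0.22 on the 24h_Ctrl arrays and −0.38, −0.38 and −0.22 on the 24h_Cyt arrays after quantile normalization. Without normalization it ran from 0.01 to 0.32 (mean 0.21 ± 0.17, SD, n = 3) in 24h_Ctrl and from −0.40 to −0.25 (mean −0.33 ± 0.07) in 24h_Cyt. On both scales the groups did not overlap. The 24h_Giv_Ctrl mean without normalization was −0.12 ± 0.15 and the 24h_Giv_Cyt mean −0.21 ± 0.17, and these overlapped. For let-7c minus let-7f the means without normalization were −0.03 ± 0.11 in 24h_Ctrl and −0.48 ± 0.06 in 24h_Cyt. Over 18 settings, which gave 11 distinct values since several cannot move a difference of log2FC, the change in let-7b minus let-7f between 24h_Cyt and 24h_Ctrl ran from −0.64 to −0.17, that in let-7c minus let-7f from −0.55 to −0.16 and that in let-7e minus let-7f from −0.64 to −0.23. A ratio within an array can show unequal change and never that let-7f itself did not change. No test was run on these differences. No slide held both 24h_Ctrl and 24h_Cyt arrays, so slide and cytokines cannot be told apart here.

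**Figure D4:**
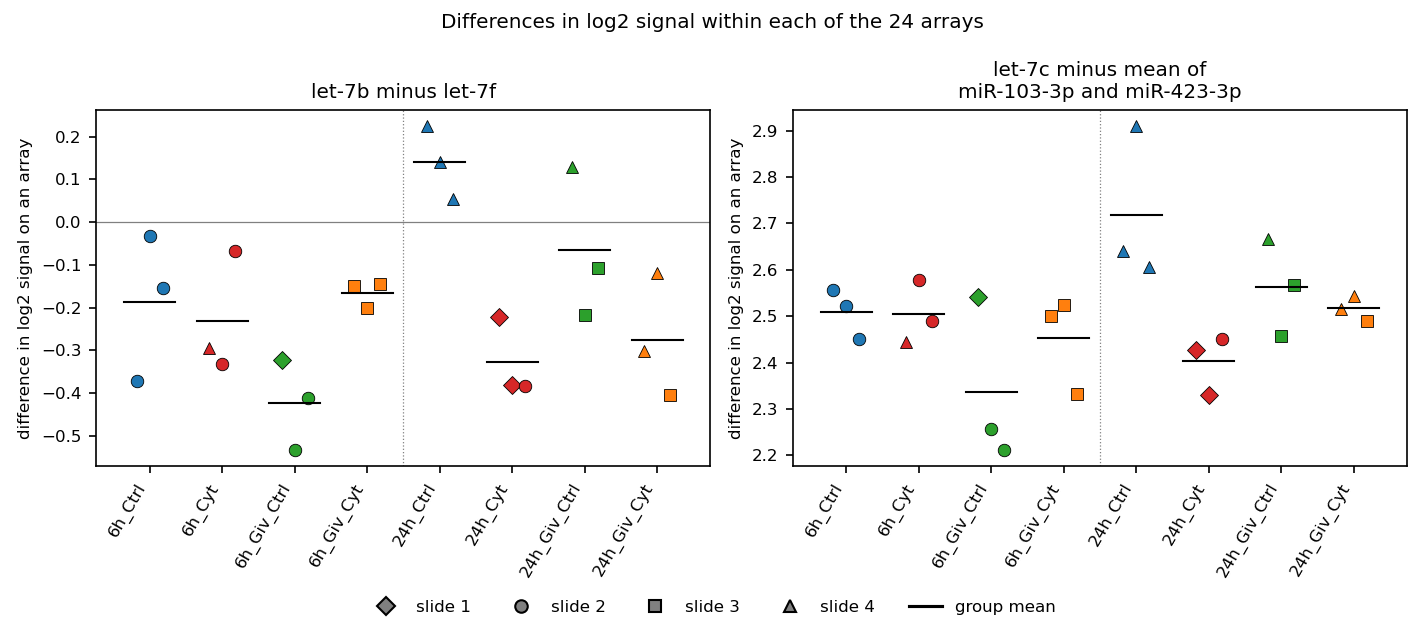
Differences in quantile-normalized log2 signal taken within each of the 24 arrays, by group, for let-7b minus let-7f and for let-7c minus the mean of miR-103-3p and miR-423-3p, the latter at background level, with marker shapes for the slides and a line at the group mean. For let-7b minus let-7f the 24h_Ctrl arrays lie between 0.05 and 0.22 and the 24h_Cyt arrays between −0.38 and −0.22, and the groups also stayed apart without normalization.

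Whether the members of the family were lower or higher in 24h_Cyt depended on the scaling, and the 24h_Cyt arrays were brighter than those of 24h_Ctrl. The 75th percentile of the processed signal of detected miRs was 596 to 1003 on the 24h_Cyt arrays, 271 to 347 on the 24h_Ctrl arrays and 487 to 571 on the 24h_Giv_Cyt arrays. Without normalization all 9 members had a positive log2FC with a median of 0.76, but the detected miRs had a median of 0.83, so the family lay −0.08 from it and 6 members lay below it. On that scale 6 members were called higher (let-7a, let-7d, let-7f, let-7g, let-7i and miR-98), beside 22.8% of all miRs, each of them higher. With arrays centred on the control miRs, a scale that takes in miR-423 signals near background, the detected median was 0.46, the median of all miRs moved to −0.34, and 4 members were called higher (let-7f, let-7g, let-7i and miR-98), beside 72.7% in either direction and 9.1% that were higher. Scaled to the 75th percentile of detected miRs the family median was −0.47 against −0.10 for the detected miRs, and 5 members were called lower (let-7a, let-7b, let-7c, let-7d and let-7e), beside 10% in either direction and 4.88% that were lower. Scaled to the 75th percentile of all miRs, limma called 0 members, beside 2.51%, and the family median was −0.54 against −0.17 for the detected miRs. That percentile lay close to the limit of detection, since 129 to 211 of the 758 miRs on an array were well above background.

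Relative to the detected miRs, let-7b and let-7c had a lower log2FC. The log2FC minus the detected median was −0.38 for let-7b and −0.33 for let-7c after quantile normalization, and −0.30 and −0.22 without normalization. Over the 18 settings, again with 11 distinct values, this difference ran from −0.63 to −0.30 for let-7b and from −0.54 to −0.22 for let-7c. For let-7f it ran from −0.20 to 0.24 and so changed sign with the setting.

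**Figure D5:**
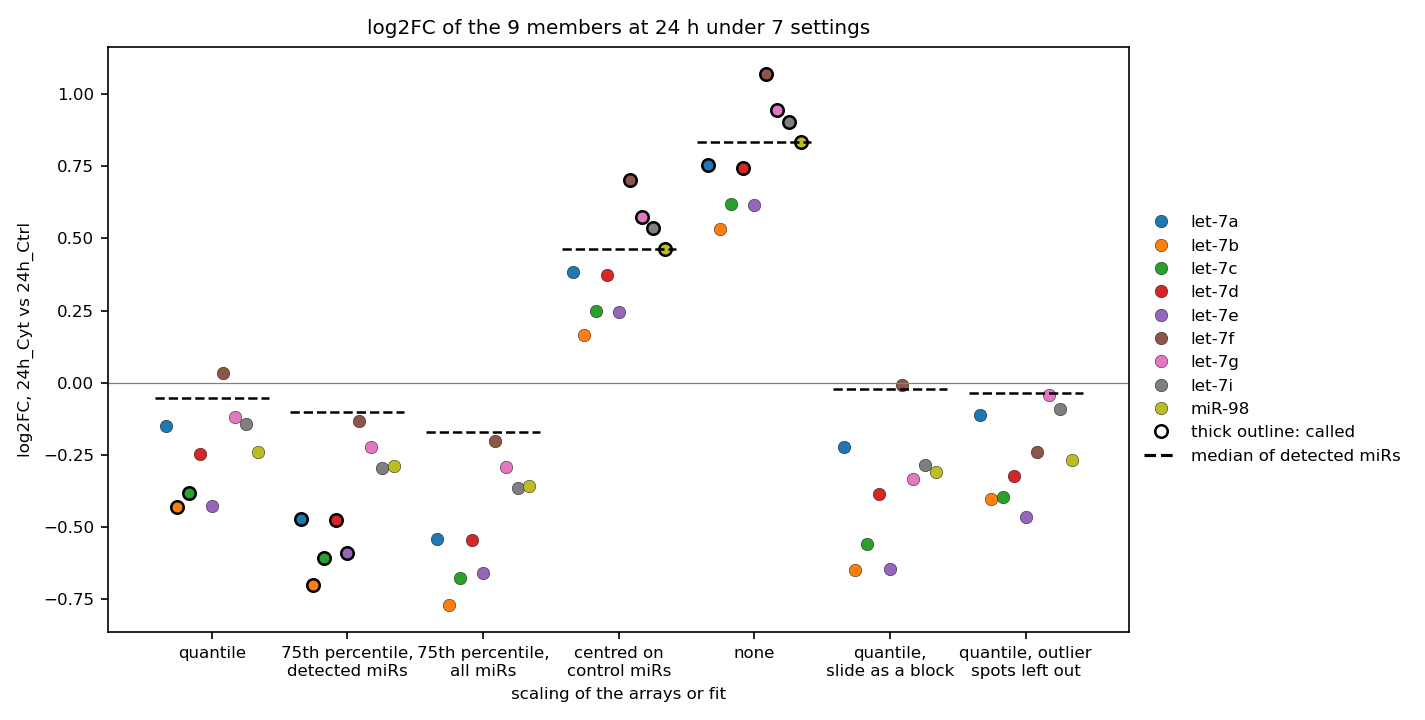
The log2FC of the 9 members for 24h_Cyt against 24h_Ctrl under 7 settings, with a dashed line at the median of the detected miRs and a thick outline on called values. Without normalization the values of all 9 are positive and with scaling to the 75th percentile of detected miRs all 9 are negative, while let-7b lies below the dashed line in each.

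The calls also rested on particular arrays. Left out in turn, 24 arrays gave a let-7b log2FC from −0.49 to −0.39 and kept its call in 21 cases, and it was lost without 24h_Ctrl array 1 (adjusted p = 0.0642), 24h_Ctrl array 2 (0.0627) or 24h_Cyt array 2 (0.0740), with 0 members called in each of these 3 cases, beside 2.64%, 1.85% and 2.11% of all miRs. The call of let-7c held in 10 cases, and the adjusted p without each array ran from 0.0107 to 0.184. Its log2FC ran from −0.43 to −0.31. It was lost without any array of the compared groups (24h_Ctrl 1, 2 and 3 at 0.0824, 0.155 and 0.0521, and 24h_Cyt 1, 2 and 3 at 0.0982, 0.184 and 0.0538). Arrays of other groups entered through the shared residual spread, and the call of let-7c was also lost without 24h_Giv_Ctrl 1 (0.0506) or 3 (0.0548), 24h_Giv_Cyt 2 (0.0525) or 3 (0.0583), 6h_Ctrl 2 (0.0531), or 6h_Cyt 1 (0.0529), 2 (0.0514) or 3 (0.0529). In 11 cases the count was 1 member, beside 2.24% to 4.09% of all miRs, in 8 cases it was 2, beside 3.96% to 4.22%, and it rose to 3 with let-7e added without 6h_Giv_Ctrl 1 (adjusted p of let-7e = 0.0321, beside 5.8%) or 6h_Giv_Cyt 3 (0.0498, beside 4.62%).

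The slides limit this comparison as well. The arrays came from 4 slides, all 3 24h_Ctrl arrays were on slide 4, 24h_Cyt arrays 1 and 2 were on slide 1 and array 3 was on slide 2, so no slide held both groups and no within-slide value exists. Slide 1 was scanned on a different day from the other 3. With slide as a fixed block the log2FC of let-7b was −0.65 (adjusted p = 0.319) and that of let-7c −0.56 (adjusted p = 0.448), and limma called 0 members, beside 0.132% of all miRs. With slide as a random block let-7b kept its call at −0.44 (adjusted p = 0.0249) and let-7c did not (adjusted p = 0.0723), which is 1 member beside 3.43%. Without the arrays of slide 1 the value of let-7b was −0.44 (adjusted p = 0.194) and 0 members were called, beside 0.396%, but 24h_Cyt then held 1 array, which was assumed to vary like the other groups. With outlier spots left out let-7b had −0.41 (adjusted p = 0.0509) and 0 members were called, beside 3.3%. In that setting let-7f stood at −0.24, and 56 of its 384 spots had been marked as outliers, beside 66 for let-7b and 29 to 46 for the other members. The cause of the let-7f shift was not tested.

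With Givinostat present, the same question was asked by 24h_Giv_Cyt against 24h_Giv_Ctrl. For let-7b the 24h_Giv_Ctrl arrays read 10.46, 10.26 and 10.36 and the 24h_Giv_Cyt arrays 10.08, 10.29 and 10.08. The groups overlapped, since the second 24h_Giv_Cyt array was above the lowest array without cytokines. For let-7c the values were 10.28, 10.13 and 10.22 against 9.96, 10.13 and 10.08. In this comparison limma called 0 members, beside 0.528% of all miRs, and 1 member, let-7b, had an unadjusted p below 0.05 (log2FC −0.21, adjusted p = 0.406), beside 12.3% in either direction and 8.58% lower. With the pooled correlation 0 were called, beside 5.67%. The 24h_Giv_Cyt arrays of 2 members (let-7a and let-7d) lay entirely below those of 24h_Giv_Ctrl, beside 15.3% of all miRs. The family median was −0.15 (−0.08 without 24h_Giv_Cyt array 1) against −0.02 for detected miRs, and it turned to 0.30 without normalization, where the detected median was 0.43, and to 0.09 with centring on the control miRs. Scaled to the 75th percentile of all miRs it was −0.66, where the detected median was −0.44. Within slides the family median was −0.15 on slide 3 and −0.10 on slide 4, and with slide as a fixed block it was −0.13.

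Whether Givinostat altered the cytokine difference was tested as an interaction term, the cytokine log2FC with Givinostat minus that without. At 24 h the term was 0.23 for let-7b (SE 0.139, adjusted p = 0.898) and 0.23 for let-7c (SE 0.154, adjusted p = 0.943). The limma fit passed 0 members and 0 of the 758 miRs (0%), and 0 members had an unadjusted p below 0.05, beside 5.15%, or passed with the pooled correlation, beside 2.9%. So the call in cells without Givinostat and its absence with Givinostat were not shown to differ. At 6 h the same term also gave 0 members in limma, beside 0%, with 0 at an unadjusted p below 0.05 (1.58% of all miRs) and 0 with the pooled correlation (0.132%).

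Givinostat alone at 24 h was read from 24h_Giv_Ctrl against 24h_Ctrl, which uses the same control arrays as the cytokine comparison. It gave 0 called members in limma, beside 0% of all miRs, with 0 at an unadjusted p below 0.05 (4.22% of all miRs) and 0 with the pooled correlation (0.396%). The arrays of 4 members (let-7d, let-7e, let-7i and miR-98) lay entirely below those of 24h_Ctrl after quantile normalization, beside 5.41% of all miRs. The family median was −0.12 against −0.03 for detected miRs, 0.01 without normalization and −0.28 scaled to the 75th percentile of detected miRs, where these stood at −0.12, with let-7b at −0.18 (adjusted p = 0.992), let-7e at −0.22 and let-7f at 0.03. On slide 4, which held all 3 24h_Ctrl arrays and 1 24h_Giv_Ctrl array, the family median was −0.13, and with slide as a fixed block it was −0.10.

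Under cytokines, 24h_Giv_Cyt against 24h_Cyt gave the effect of adding Givinostat. There limma called 0 members, beside 0.132% of all miRs, with 0 at an unadjusted p below 0.05 (5.01% of all miRs) and 0 with the pooled correlation (3.17%). The members lay between −0.13 and 0.11 with a median of 0.02, let-7b at 0.05 and let-7c at 0.11. With each array left out in turn the median ran from −0.05 to 0.05. Without normalization the median was −0.49 and with centring −0.39, where the detected miRs stood at −0.29 and −0.19, and scaled to the 75th percentile of all miRs it was −0.29 against −0.21. No slide held both groups, and with slide as a fixed block the median was 0.09.

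At 6 h the cytokine comparison 6h_Cyt against 6h_Ctrl gave the smallest spread of values, from −0.04 to 0.05 over the 9 members. For let-7b the 6h_Ctrl arrays read 10.09, 10.36 and 10.18 and the 6h_Cyt arrays 10.10, 10.10 and 10.37, which overlap throughout. Here limma called 0 members, beside 0% of all miRs, with 0 at an unadjusted p below 0.05 (3.96% of all miRs) and 0 with the pooled correlation (0.264%). Over the members the median was −0.02, became 0.15 without normalization, where the detected median was 0.13, and was 0.02 both within slide 2 and with slide as a fixed block. With each array left out in turn it ran from −0.06 to 0.05.

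The cytokine difference at 24 h minus that at 6 h, both without Givinostat, was −0.41 for let-7b (SE 0.139, adjusted p = 0.332) and −0.36 for let-7c (SE 0.154, adjusted p = 0.419). By limma 0 members passed, beside 0.528% of all miRs, while these 2 members had an unadjusted p below 0.05, beside 9.37%, and 1, miR-98, passed with the pooled correlation, beside 2.77%. The 24 h call was therefore not shown to differ from the 6 h value. The Givinostat effect under cytokines at 24 h minus 6 h gave 0 members in limma, beside 0.132%, with 0 at an unadjusted p below 0.05 (3.69% of all miRs) and 0 with the pooled correlation (0.66%).

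Givinostat at 6 h without cytokines, 6h_Giv_Ctrl against 6h_Ctrl, gave negative values that did not pass for 8 of the 9 members after quantile normalization, and for 4 of 9 without normalization. For let-7b the 6h_Giv_Ctrl arrays read 10.16, 9.91 and 9.93, the first of them on slide 1 and within the range of the 6h_Ctrl arrays. That array was the highest of its group for all 9 members. By limma 0 members were called, beside 0% of all miRs, 4 had an unadjusted p below 0.05 (let-7a, let-7b, let-7c and let-7e at −0.21, −0.21, −0.25 and −0.37, lowest adjusted p = 0.963), beside 4.49% in either direction and 3.69% lower, and 1, miR-98, was called with the pooled correlation, beside 0.66%. The arrays of 1 member, let-7a, lay entirely below those of 6h_Ctrl, beside 2.37%. The family median was −0.21 (−0.13 without 6h_Giv_Ctrl array 3) against 0.00 for detected miRs, without normalization it was 0.00 against 0.24, and scaled to the 75th percentile of detected and of all miRs it was −0.40 against −0.06 and −0.42 against −0.09. Within slide 2 the median was −0.31, and with slide as a fixed block it was −0.24.

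With cytokines added after Givinostat, 6h_Giv_Cyt against 6h_Giv_Ctrl shares those arrays. For let-7b the 6h_Giv_Cyt arrays read 10.34, 10.28 and 10.05, and the third was the lowest of its group for all 9 members. By limma 0 members were called, beside 0%, 1 member, let-7b at 0.22, had an unadjusted p below 0.05, beside 3.43% in either direction and 1.32% higher, and 0 were called with the pooled correlation, beside 0%. Over the members the median was 0.16 against 0.02 for detected miRs, 0.05 without normalization, 0.36 scaled to the 75th percentile of detected miRs, where these stood at 0.22, and 0.22 with slide as a fixed block. It was 0.06 without 6h_Giv_Ctrl array 3, 0.08 without 6h_Giv_Cyt array 1, 0.27 without 6h_Giv_Ctrl array 1 and 0.28 without 6h_Giv_Cyt array 3. Between 6h_Giv_Cyt and 6h_Cyt limma called 0 members, beside 0%, with 0 at an unadjusted p below 0.05 (3.17% of all miRs) and 0 with the pooled correlation (2.77%), and the family median was −0.03, equal to that of detected miRs, 0.04 with scaling to the 75th percentile of detected miRs and 0.01 with slide as a fixed block. No slide held both groups in either comparison. With each array left out in turn, the family median of 6h_Giv_Cyt against 6h_Cyt ran from −0.11 to 0.08.

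Time in culture was read within each treatment. In untreated cells, 24h_Ctrl against 6h_Ctrl gave 0 called members in limma, beside 0%, and 3 with an unadjusted p below 0.05 (let-7b, let-7c and let-7e at 0.32, 0.23 and 0.33), beside 5.15% in either direction and 2.64% higher, with 0 by the pooled correlation, beside 0.66%. The arrays of 5 members (let-7b, let-7c, let-7d, let-7e and let-7i) lay entirely above those of 6h_Ctrl, beside 3.83%. The family median was 0.17 against 0.02 for detected miRs, and 0.14 without normalization, where the detected median was −0.03. No slide held both groups, and with slide as a fixed block the median was 0.20. With Givinostat alone, 24h_Giv_Ctrl against 6h_Giv_Ctrl gave 0 called members in limma, beside 0%, and 5 with an unadjusted p below 0.05 (let-7a, let-7b, let-7c, let-7d and let-7e at 0.25, 0.36, 0.36, 0.26 and 0.47, lowest adjusted p = 0.397), beside 3.96% in either direction and 3.43% higher, and 1, miR-98, by the pooled correlation, beside 0.264%. The arrays of 3 members (let-7a, let-7b and let-7e) lay entirely above those of 6h_Giv_Ctrl, beside 3.69%. The family median was 0.25 (0.16 without 6h_Giv_Ctrl array 3) against 0.00 for detected miRs and was positive on the other scales, from 0.16 to 0.54, and with slide as a fixed block it was 0.30, with no slide holding both groups.

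With cytokines the time comparisons were near 0 after quantile normalization. With each array left out in turn, the family median of 24h_Cyt against 6h_Cyt ran from −0.09 to 0.02. That of 24h_Giv_Cyt against 6h_Giv_Cyt ran from −0.11 to 0.09. For 24h_Cyt against 6h_Cyt limma called 0 members, beside 0.792% of all miRs, with 0 at an unadjusted p below 0.05 (13.7% of all miRs) and 0 with the pooled correlation (2.37%). The median was −0.04, −0.02 within slide 2 and −0.18 with slide as a fixed block, and without normalization it was 0.77 with 6 members called, beside 16.1% of all miRs, each of them higher, where detected miRs stood at 0.69. Centred on the control miRs, with the limit from miR-423 given above, the median was 0.43 and 8 members were called higher, beside 70.7% in either direction and 8.71% higher. The arrays of 1 member, let-7c, lay entirely below those of 6h_Cyt after quantile normalization, beside 13.3%. For 24h_Giv_Cyt against 6h_Giv_Cyt limma called 0 members, beside 0.396%, with 0 at an unadjusted p below 0.05 (8.84% of all miRs) and 0 with the pooled correlation (1.85%), and the median was 0.02, −0.03 within slide 3, 0.00 with slide as a fixed block, −0.17 and −0.34 with scaling to the 75th percentile of detected and of all miRs, and 0.39 without normalization, where detected miRs stood at 0.43. Since the untreated 24h_Ctrl arrays also enter the cytokine comparison at 24 h, the values of let-7b there (−0.43) and between 24h_Ctrl and 6h_Ctrl (0.32) share arrays and are not separate observations. The same holds for let-7c, at −0.38 and 0.23.

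The passenger arms, the strands opposite the members in the same hairpins, were mostly dark. Of 10 on the array, let-7d-3p was detected on all 24 arrays, let-7b-3p on 22, let-7g-3p on 3 and the rest on 0. In 24h_Cyt against 24h_Ctrl limma called 0 of the 10, with 2 at an unadjusted p below 0.05 and a median of −0.03, where 4.09% of all miRs were called and 23.7% passed unadjusted. There let-7b-3p had a log2FC of −0.05 (adjusted p = 0.643) and let-7d-3p 0.06 (adjusted p = 0.875), and the pooled correlation called 0, beside 6.33%. In each of the 12 comparisons limma called 0 passenger arms, beside 0% to 4.09% of all miRs. At most 2 arms had an unadjusted p below 0.05, beside 3.17% to 23.7% of all miRs. With the pooled correlation let-7d-3p was called in 6h_Giv_Cyt against 6h_Cyt (log2FC 0.24, adjusted p = 0.0149, against 0.926 in the fit on array means, beside 2.77% of all miRs) and in 24h_Giv_Cyt against 24h_Giv_Ctrl (log2FC 0.23, adjusted p = 0.00526, against 0.582, beside 5.67%). Its 6h_Giv_Cyt arrays ran from 6.34 to 7.11 and its 6h_Cyt arrays from 6.37 to 6.57, which overlap.

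The cluster partners are the 5p arms of miR-99 and miR-125 relatives and of miR-100 that are transcribed with let-7 hairpins. Of 5, miR-125b-5p, miR-99b-5p and miR-125a-5p were detected on all 24 arrays. In 24h_Cyt against 24h_Ctrl limma called 0 of the 5, with 2 at an unadjusted p below 0.05, 0 by the pooled correlation and a median of −0.04, beside the same 4.09%, 23.7% and 6.33% of all miRs. The 24h_Ctrl arrays read 6.89 to 6.95 for miR-125b-5p and the 24h_Cyt arrays 7.03 to 7.12 (log2FC 0.17, adjusted p = 0.100), while miR-99b-5p and miR-125a-5p, which lie with let-7e, had −0.01 and −0.06 (adjusted p = 0.961 and 0.794).

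In the paper let-7c also served as an internal control for qRT-PCR, as did miR-103a with miR-423. The paper states that the stability of let-7c under cytokines was tested. Its supplement on rat islets calls let-7c stable after 24 h of IL-1β, alone or with IFN-γ. Of these controls miR-103-3p was detected on all 24 arrays, miR-423-3p on 0 and miR-423-5p on 1, and limma called 0 of the 3 in 24h_Cyt against 24h_Ctrl, with 1 at an unadjusted p below 0.05 and 0 by the pooled correlation, beside 4.09%, 23.7% and 6.33% of all miRs. The log2FC of miR-103-3p was −0.19 (SE 0.110, adjusted p = 0.303), a sign that flips without normalization between arrays (0.83), and centring on the control miRs cannot test it, since it is one of them. Without normalization limma called miR-103-3p (adjusted p = 0.0169) and miR-423-5p (log2FC 0.21, adjusted p = 0.0405) higher, beside 22.8% of all miRs. The value of let-7c minus the mean of miR-103-3p and miR-423-3p was 2.64, 2.91 and 2.61 on the 24h_Ctrl arrays and 2.43, 2.33 and 2.45 on the 24h_Cyt arrays. Since miR-423-3p read at background level, this mean took in a background signal and moved less than miR-103-3p itself (9.79 ± 0.10, SD, n = 3, in 24h_Ctrl and 9.60 ± 0.07 in 24h_Cyt), so the difference is not one between let-7c and miR-103-3p. Over the 24 arrays it ran from 2.21 to 2.91 with an SD of 0.141, and with miR-423-5p, which was also near background, in place of the 3p arm the SD was 0.138. Which arm of miR-423 was used is not given in the sources used here. The SD of let-7c itself over the 24 arrays was 0.184 and ranked 62 among the 117 miRs detected on all arrays, where the median was 0.181, and let-7f ranked 2 at 0.0684 with the rank limit described above. With scaling to the 75th percentile of detected miRs let-7c ranked 61 (SD 0.262) and let-7f 9.

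As an example of a ratio to let-7c, miR-146a-5p, an NF-κB-induced miR, was detected on 3 arrays of 24h_Cyt, 3 of 24h_Giv_Cyt and 0 of 24h_Ctrl and 24h_Giv_Ctrl. It was called in 24h_Cyt against 24h_Ctrl with a log2FC of 0.59, taken against a signal at background level and so not a measure of the size of its change. Its value minus let-7c was −3.90 in 24h_Cyt and −3.85 in 24h_Giv_Cyt, and in the groups where it was not detected such a ratio reads background.

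The miRs whose pattern over the 8 group means was most like the mean of the 9 members were miR-1949 (Pearson r 0.956), miR-3099 (0.935), miR-1224 (0.899), miR-103-3p (0.873) and miR-125a-5p (0.783), of 108 ranked with a median r of −0.208. The 8 means share a normalization and the fit, and 4 of these 5 were also among the 5 most alike with scaling to the 75th percentile of detected miRs. In 24h_Cyt against 24h_Ctrl the log2FC was −0.45 for miR-1949, −0.50 for miR-3099 and −0.30 for miR-1224. It was −0.19 for miR-103-3p and −0.06 for miR-125a-5p. The adjusted p of these 5 in limma ran from 0.0639 to 0.794, and these group means entered their choice. Among the members, the lowest r with the mean of the 9 was 0.866, for let-7i, apart from let-7f, for which it was −0.415, and 0.881 with scaling to the 75th percentile, still the lowest of the 9. The sign of the let-7f r thus depended on the scaling. Each member is part of this mean, so some of its r is built in. In 24h_Cyt against 24h_Ctrl let-7f had the highest log2FC of the members in 17 of the 18 settings, several of which share their values, and the exception was the setting with outlier spots left out.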

How the data were processed

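Median foreground spot signals of 24 arrays were used, in the unit intensity per the file headers; the deposited table holds log2 values that the authors quantile-normalized per the paper's methods. The submitters' notes name Agilent Feature Extraction 9.1 and the headers 10.7.3.1. Control spots were removed without background correction, the 12128 miR spots were quantile-normalized, and log2 values were averaged over 16 spots for each of 758 miRs. limma 3.58.1 in R 4.3.3 fitted 8 group means (16 residual degrees of freedom), with Benjamini-Hochberg adjustment over all miRs in each of 12 comparisons and 4 interaction terms. Tables and figures used Python 3.11.15, pandas 2.3.3, numpy 2.4.6 and matplotlib 3.10.9.

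Signal over background and the number of arrays limit precision: 129 to 211 miRs per array were well above background. Alternatives were the summary of spots, the signal, background correction (normexp, offset 50), scaling (75th percentile, none, internal controls), detected miRs alone, slides, outlier spots, the deposited table, the brightest probe sequence, a replicate block and each array left out. The limma fit on array means and the call rule were tested on simulated data with independent noise. Normalization, the averaging of spots, slides and the pooled correlation were not simulated.

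The named miRs were the 9 members and lists of passenger arms, cluster partners, miRs with the same seed, internal controls and miR-146a-5p, the 5 miRs most alike, and cell type markers. Members and lists were chosen with earlier results of these data known.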

Additional observations from a re-analysis of the deposited data

How the results depend on the processing

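In 24h_Cyt against 24h_Ctrl the number of members called (2, beside 4.09% of all miRs) became 1 with the median over spots (3.43%) and normexp (3.3%). It was also 1 with slide as a random block (3.43%) and the deposited table (3.43%). The count was 5 with the 75th percentile of detected miRs (10%, or 4.88% lower) and 0 with that of all miRs (2.51%). It was 6 without normalization (22.8%) and 4 centred on control miRs (72.7%, or 9.1% higher). It was 0 with slide as a fixed block (0.132%) and with outlier spots left out (3.3%). Without slide 1, which left 1 array in 24h_Cyt, the family median was −0.15. Without normalization the log2FC reversed to 0.76 for let-7a, 0.53 let-7b, 0.62 let-7c, 0.74 let-7d, 0.95 let-7g, 0.91 let-7i and 0.83 miR-98, and with centring to 0.16 let-7b, 0.25 let-7c, 0.58 let-7g, 0.54 let-7i and 0.46 miR-98. Called on neither scale, let-7e also turned positive without normalization (0.61), as did let-7a, let-7d and let-7e with centring (0.38, 0.37 and 0.24). The centring takes in the arms of miR-423, which read near background, and without normalization miR-103-3p, the detected control, had 0.83, above let-7a to let-7e. In 24h_Cyt against 6h_Cyt 6 members were called without normalization (16.1% of all miRs) and 8 with centring (70.7%, or 8.71% higher), and the pooled correlation called 1 in 6h_Giv_Ctrl against 6h_Ctrl (0.66%), 1 in 24h_Giv_Ctrl against 6h_Giv_Ctrl (0.264%) and 1 in the 24 h minus 6 h cytokine term (2.77%). In 24h_Cyt against 24h_Ctrl the pooled correlation called 3 (6.33%, or 2.77% lower), with let-7e and miR-98 added and let-7c lost (adjusted p = 0.239). Family medians without normalization were 0.15 (6h_Cyt against 6h_Ctrl), 0.000795 (6h_Giv_Ctrl against 6h_Ctrl), 0.76 (24h_Cyt against 24h_Ctrl), −0.49 (24h_Giv_Cyt against 24h_Cyt), 0.30 (24h_Giv_Cyt against 24h_Giv_Ctrl), 0.77 (24h_Cyt against 6h_Cyt) and 0.39 (24h_Giv_Cyt against 6h_Giv_Cyt). Centred on control miRs they were −0.0688 (6h_Giv_Ctrl against 6h_Ctrl), 0.38 (24h_Cyt against 24h_Ctrl), −0.39 (24h_Giv_Cyt against 24h_Cyt), 0.0880 (24h_Giv_Cyt against 24h_Giv_Ctrl) and 0.43 (24h_Cyt against 6h_Cyt). With the 75th percentile of detected miRs they were 0.36 (6h_Giv_Cyt against 6h_Giv_Ctrl), −0.40 (6h_Giv_Ctrl against 6h_Ctrl), −0.47 (24h_Cyt against 24h_Ctrl), −0.28 (24h_Giv_Ctrl against 24h_Ctrl) and −0.17 (24h_Giv_Cyt against 6h_Giv_Cyt). With that of all miRs, which lay close to the limit of detection, the family medians were −0.42 (6h_Giv_Ctrl against 6h_Ctrl), −0.54 (24h_Cyt against 24h_Ctrl), −0.29 (24h_Giv_Cyt against 24h_Cyt), −0.66 (24h_Giv_Cyt against 24h_Giv_Ctrl), −0.34 (24h_Giv_Cyt against 6h_Giv_Cyt) and 0.54 (24h_Giv_Ctrl against 6h_Giv_Ctrl). The cause of these changes was not tested, except that fewer arrays remained without slide 1. Leaving out each array gave 0 to 3 members called in 24h_Cyt against 24h_Ctrl (1.85% to 5.8% of all miRs) and 0 in the other comparisons (0% to 1.32%), and the family median of 24h_Cyt against 24h_Ctrl ran from −0.26 to −0.10. With a replicate block the adjusted p was 0.0205 for let-7b and 0.0488 for let-7c. Pairing of same-numbered arrays was not evident, since 8 of 24 arrays correlated best with their own number. Over 84 same-numbered pairs r ran from −0.94 to 0.97 with a median of 0.0977. With 3 arrays per group these values cannot exclude pairing. The medians listed are the 23 that moved by more than the spread between replicates, 169 stayed within it, and the counts stayed within 1.5 times in 189, where the members called may differ, as with the pooled correlation in 24h_Cyt against 24h_Ctrl.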

Other observations

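The array also carried miR-3596a, miR-3596b, miR-3596c and miR-3596d, annotated on the strand opposite let-7a-2, let-7d, let-7e and let-7f-1. They were looked up after the values of the members were seen. They were detected on 7, 2, 23 and 0 of the 24 arrays, and their signals ran from 5.85 to 6.11, 5.75 to 5.97, 6.07 to 6.70 and 5.57 to 5.69. In 24h_Cyt against 24h_Ctrl their log2FC were 0.03, 0.04, 0.03 and 0.03 (adjusted p = 0.780, 0.656, 0.912 and 0.531). Here limma called 0 of them, beside 4.09% of all miRs, and also 0 with the correlation pooled over the spots, beside 6.33%.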
